A study of Sus scrofa with 70 samples.

Results

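The spermadhesin genes of the pig lie side by side on chromosome 14, and their transcripts were followed here through 5 glands of the boar. All gene labels with an exon in the window of chromosome 14 that holds these genes and their nearest neighbours (build Sscrofa11.1) were taken from the deposited transcript annotation, which gave 13 of the 42873 gene labels of that annotation. A gene label is the gene, or the pair of genes, to which an isoform was assigned. Of the 13 labels, 5 were spermadhesin genes (AWN, AQN-1, PSP-II, PSP-I and SPMI), 4 were joined labels whose isoforms hold exons of a pair of spermadhesin genes, and 4 were neighbours. The neighbours were DMBT1, C14H10orf120, a gene without a symbol (ENSSSCG00000049231) and an antisense label opposite PSP-II. Abundance values were given for 12 of the 13, all but ENSSSCG00000049231, out of 35552 labels with values in the whole table.

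The glands were the testis (Tes), the epididymis (Epi) with its duct for sperm, and the 3 accessory glands, namely vesicular (VG), prostate (PG) and bulbourethral (BG), all from boars aged 12 months. The boars were of the Banna mini-pig inbred line (BMI) or were Diannan small-ear pigs (DSE), the stock from which BMI was bred, and no boar was treated. RNA-seq was done on 30 libraries, 3 for each breed and gland, and PacBio Iso-seq, which reads whole transcripts, on 10 libraries, 1 for each breed and gland. The sources used here do not say whether the 3 libraries of a group came from separate boars, so p-values measure the spread between libraries only.

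Spermadhesins are small secreted proteins built around a CUB domain, a fold of beta strands found in many extracellular proteins. In the boar they make up much of the protein of seminal plasma, where they coat the sperm surface and bind sugars, phospholipids or heparin, and the vesicular gland is known as a main source. PSP-I and PSP-II pair with each other in seminal plasma, whereas AWN, AQN-1 and AQN-3 are known as sperm coating proteins that can bind the glycoproteins around the egg. AQN-3 is a synonym of SPMI in RefSeq.

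The 5 genes shared a plan of 5 exons. By their Ensembl spans, AWN (ENSSSCG00000002980) lay on the plus strand at chr14:132240887-132248033, followed by AQN-1 (ENSSSCG00000021947) at chr14:132259062-132266058 and PSP-II (ENSSSCG00000061335) at chr14:132274241-132281728. PSP-I (ENSSSCG00000002978) followed at chr14:132302352-132308106, and SPMI (ENSSSCG00000002977) lay on the minus strand at chr14:132315164-132321592. The name AQN-1 was taken from the RefSeq gene at that position. The symbols of the other genes came from the deposited annotation or RefSeq.

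The coding part of exon 1 joined to exon 2 is shown because the most read isoform of the cluster changes genes at this junction. The first 46 bases, from the start codon, are exon 1, the last 30 are exon 2, and capitals mark the bases that differ from PSP-II. The last line is the isoform that joins exon 1 of AQN-1 to exon 2 of PSP-II.
PSP-II: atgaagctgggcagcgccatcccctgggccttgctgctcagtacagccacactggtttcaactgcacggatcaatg
AQN-1: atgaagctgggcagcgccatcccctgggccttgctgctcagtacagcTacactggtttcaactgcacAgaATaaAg
SPMI: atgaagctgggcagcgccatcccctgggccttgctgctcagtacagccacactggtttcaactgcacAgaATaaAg
PSP-I: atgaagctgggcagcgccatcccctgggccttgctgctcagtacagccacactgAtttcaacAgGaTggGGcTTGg
AWN: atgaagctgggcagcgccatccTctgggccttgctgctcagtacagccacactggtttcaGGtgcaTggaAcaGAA
AQN-1/PSP-II: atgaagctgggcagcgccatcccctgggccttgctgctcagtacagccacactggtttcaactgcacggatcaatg

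The coding part of exon 1 lay at chr14:132274270-132274315 in PSP-II, chr14:132259093-132259138 in AQN-1 and chr14:132302381-132302426 in PSP-I. It lay at chr14:132240916-132240961 in AWN and, on the minus strand, at chr14:132321518-132321563 in SPMI. It was the same in all genes but AWN, which carried C23T, counted from the first base of the start codon with the base of PSP-II first. Exon 2 differed from that of PSP-II at 4 bases in SPMI, 5 in AQN-1, 7 in AWN and 9 in PSP-I. The joined isoform therefore had the same 76 bases as PSP-II, although its first exon was aligned to AQN-1.

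Identity between the genes fell sharply after exon 1. Over the 10 pairs of genes, the median identity was 98.0% in exon 1 (lowest 96.1%, highest 100%), 75% in exon 2, 64.3% in exon 3, 65.9% in exon 4 and 69.2% in exon 5. Exon 3, where identity was lowest and PSP-II differs in length, is printed here with the bases shared by all 5 in capitals.
PSP-II: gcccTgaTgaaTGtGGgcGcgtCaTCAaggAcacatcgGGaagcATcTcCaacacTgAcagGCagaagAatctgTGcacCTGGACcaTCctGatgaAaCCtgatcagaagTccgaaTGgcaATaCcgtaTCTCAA
PSP-I: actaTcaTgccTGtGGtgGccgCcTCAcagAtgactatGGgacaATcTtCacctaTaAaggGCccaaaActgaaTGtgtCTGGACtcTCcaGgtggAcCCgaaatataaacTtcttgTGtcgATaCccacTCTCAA
SPMI: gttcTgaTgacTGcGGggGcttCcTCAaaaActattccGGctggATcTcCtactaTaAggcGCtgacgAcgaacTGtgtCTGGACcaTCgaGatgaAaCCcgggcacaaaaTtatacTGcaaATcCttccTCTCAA
AWN: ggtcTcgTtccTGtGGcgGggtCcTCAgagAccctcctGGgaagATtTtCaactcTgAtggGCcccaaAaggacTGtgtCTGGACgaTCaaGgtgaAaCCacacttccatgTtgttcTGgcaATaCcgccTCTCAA
AQN-1: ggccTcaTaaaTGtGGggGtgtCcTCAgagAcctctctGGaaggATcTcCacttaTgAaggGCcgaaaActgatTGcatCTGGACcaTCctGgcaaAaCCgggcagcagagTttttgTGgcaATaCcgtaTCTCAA

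In the alignment of exon 3, 49 of 136 columns (36.0%) were the same in all 5 genes. The exon of PSP-II, at chr14:132277992-132278126, had 135 bases, and those of the other genes had 136. PSP-II thus had 1 base fewer. The Ensembl transcript of PSP-II splits exon 3 into parts of 110 and 23 bases and leaves out the bases between them. The frame of that transcript was not followed here. Frames were read from the start codon through the 5 exons, without that split. In the reference genome the frame of PSP-II ended after 108 codons, in exon 4. In the other genes it ended after 132 codons (AQN-1, exon 4), 133 (PSP-I, exon 5), 137 (SPMI, exon 5) and 154 (AWN, exon 5). The sequence of the Iso-seq reads themselves was not analysed here, so whether the missing base is also missing in these boars was not tested.

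Similarity extended in front of the genes. Of the 150 bases that end at base 30 before the start codon, 147 to 148 in each of the other genes were the same as in PSP-II, and so were all of the last 60 (59 in AWN). The letters CTATATAG, searched on both strands, started 60 bases before the start codon in all 5 genes. This is 31 bases before the annotated exon 1, and 29 in AQN-1, whose exon 1 is annotated 2 bases longer. They were found in 17 of 19559 windows of 60 bases before protein-coding genes in RefSeq (0.0869%), and 4 of the 17 were in the chromosome 14 window. The gene missing there is AQN-1, which starts further upstream in RefSeq than in Ensembl. This is a match of letters only. Most of the leading Iso-seq isoforms also began further upstream than the annotated starts, by 184 bases in PSP-I, 489 in AWN, 531 in SPMI and 556 in AQN-1, so these letters lay within their first exon.

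**Figure D1:**
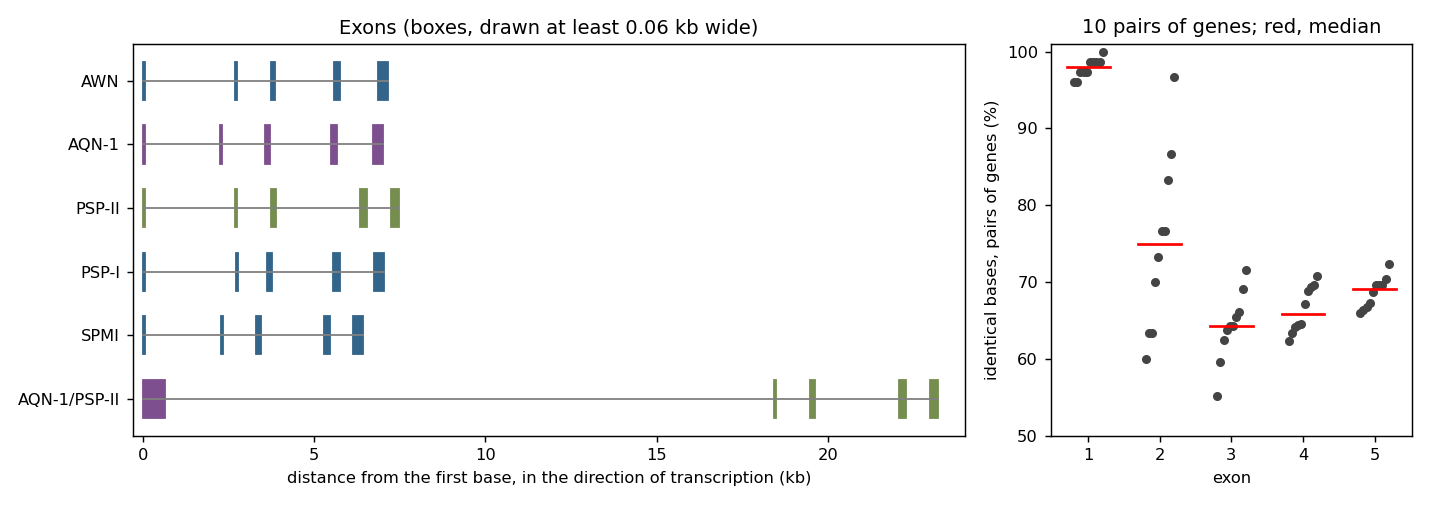
Left, exons (boxes) and introns (lines) of the 5 spermadhesin genes and of the joined isoform, by distance in kb from the first base in the direction of transcription. Exons 2 to 5 of PSP-II, PSP-I and SPMI are from Iso-seq isoforms, and those of PSP-II from the joined isoform. In the joined isoform purple is AQN-1 sequence and green PSP-II sequence. Right, percent of identical bases for each of the 10 pairs of genes by exon, with the median in red: it falls from 98.0% in exon 1 to 64.3% in exon 3.

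Abundance was given as TPM, the share of a transcript among all transcripts of a library, which is corrected for transcript length and has the same sum in each library. The TPM of all transcripts of a label were added. Spermadhesin transcripts dominated the TPM of VG. Their summed TPM was 577180, 457747 and 594813 in BMI VG and 624045, 571405 and 608223 in DSE VG, which is 45.8% to 62.4% of all TPM. In each of the 6 VG libraries 6 of the 10 most abundant labels were spermadhesin labels. Their share of the full-length reads of Iso-seq, which are not divided by transcript length, was lower. It was 5.02% in BMI VG and 6.69% in DSE VG, and the cause of this gap was not tested. TPM is a share, so a level in VG is relative to the spermadhesin transcripts. The median over all tested labels was 0.81 lower in VG than in Tes on the log2(TPM + 1) scale and 0.27 lower than in PG, and it was also 0.43 lower in PG than in Tes and 0.23 lower in BG than in Tes. The part of the spermadhesins in these shifts was not tested. In tissue samples, fewer cells of a type and less RNA per cell cannot be told apart.

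PSP-I, a subunit of the PSP-I/PSP-II pair, was the most abundant label in all 6 VG libraries. It reached 216153, 216856 and 261003 TPM in BMI and 261758, 247155 and 244878 TPM in DSE. PSP-II, its partner, had 23550, 21122 and 32263 TPM in BMI and 16050, 25567 and 23271 TPM in DSE under its own label. The breeds overlapped in both genes.

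Most transcripts with PSP-II sequence were counted under the joined label AQN-1/PSP-II instead. Its TPM was 138748, 77957 and 103572 in BMI VG and 113706, 111393 and 123685 in DSE VG. When each joined isoform was added to the gene of its last exon, a choice made after seeing the data, PSP-II ranged from 99082 to 162313 TPM, with a median of 136408, over the 6 VG libraries. The place of PSP-II in the order of levels therefore depends on where these isoforms are counted. Over the exons they share, short reads can hardly separate the 2 labels. Of the 31-base words of the Ensembl PSP-II transcript, 93.4% also occur in the leading joined isoform. In the other direction, 50.2% of the words of that isoform occur in the PSP-II transcript.

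Among the sperm coating proteins, SPMI had 90929, 76073 and 108507 TPM in BMI VG and 144264, 107730 and 129714 TPM in DSE VG. AWN had 96681, 56644 and 77258 TPM in BMI VG and 74222, 69878 and 72223 TPM in DSE VG. The libraries of these genes overlapped, and so did those of SPMI and AQN-1/PSP-II. AQN-1 was the least abundant of the 5, with 10617, 8510 and 11835 TPM in BMI VG and 13947, 9349 and 14140 TPM in DSE VG. By their medians over VG the order was PSP-I (246017 TPM), AQN-1/PSP-II (112549), SPMI (108118), AWN (73222), PSP-II under its own label (23411) and AQN-1 (11226). PSP-I stood above the next label in all 6 libraries, and PSP-II under its own label stood above AQN-1 in all 6.

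The other joined labels were rare. AWN/PSP-I had 450, 575 and 267 TPM in BMI VG and 37.5, 91.3 and 110 TPM in DSE VG. PSP-II/PSP-I ranged from 7.40 to 235 TPM (median 74.1) and AWN/PSP-II from 2.41 to 15.2 TPM (median 7.59) over the 6 VG libraries.

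**Figure D2:**
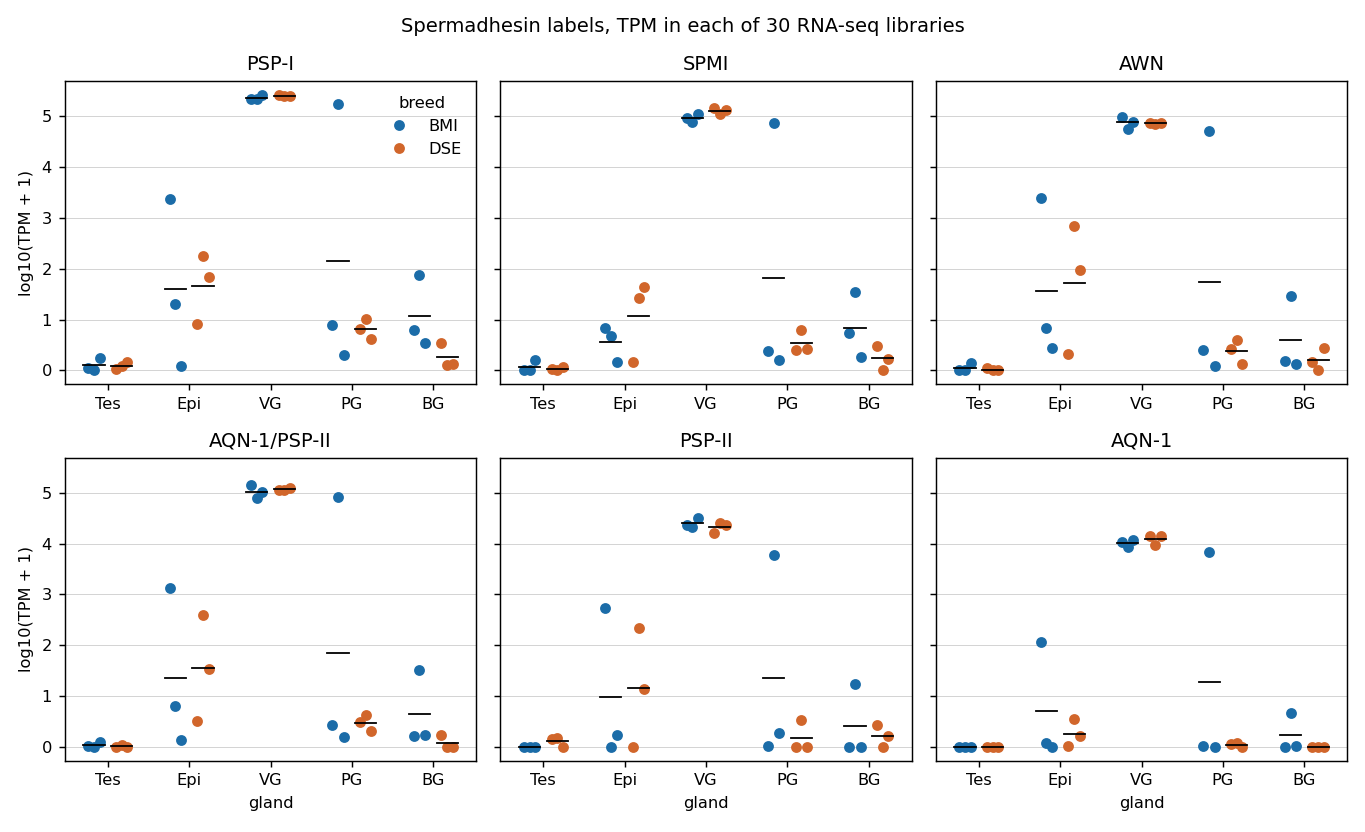
Each point is 1 RNA-seq library, on a scale of log10(TPM + 1), for the 6 most abundant spermadhesin labels by gland (horizontal axis) and breed (colour), and bars are the means of the plotted values of 3 libraries. All 6 VG libraries lie above every library of Tes, Epi and BG, and in PG only BMI replicate 2 comes near them.

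Outside VG the summed spermadhesin TPM was low in most libraries, and high in a few. In Tes it was at most 2.0 TPM, and AQN-1 was listed at 0 in all 6 libraries. In BG it was 10.7, 186 and 4.29 TPM in BMI and 7.34, 0.275 and 3.55 TPM in DSE. In PG it was 11.3, 391321 and 3.31 TPM in BMI and 10.8, 23.0 and 6.26 TPM in DSE. Hence 5 of 6 PG libraries were near the level of BG, and BMI PG replicate 2 was near that of VG. In Epi the sum was 6817, 34.6 and 3.48 TPM in BMI and 11.2, 1485 and 250.2 TPM in DSE.

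BMI PG replicate 2 also stood apart in genes outside the cluster. PAX2, a transcription factor of the embryonic duct that forms VG and Epi, had 33.4 TPM there, at most 0.0534 TPM in the other 5 PG libraries and 20.8 to 103 TPM in VG. LHX1, another factor of that duct, had 5.76 TPM there and was listed at 0 in the other PG libraries. HOXB13, a prostate factor, was listed at 0 in all VG libraries and had 92.7 TPM in BMI PG replicate 2, below the 264 to 297 TPM of the other PG libraries.

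Summed, the 4 mesonephric duct markers PAX2, EMX2, LHX1 and GATA3 had 107.6 TPM in BMI PG replicate 2, 6.13 to 13.3 TPM in the other PG libraries and 84.4 to 330.02 TPM in VG. The 5 urogenital sinus markers FOXA1, FOXA2, HOXB13, SHH and FOXQ1 had 130.1 TPM there, 324 to 375 TPM in the other PG libraries and 4.28 to 28.4 TPM in VG. Most of this sum in the other PG libraries was HOXB13. SHH went the other way, with a median of 0.906 TPM in VG and 0.388 TPM in the other PG libraries. The ranges of FOXQ1 overlapped, at 1.98 to 7.74 TPM in VG and 1.33 to 13.4 TPM in the other PG libraries. Of 2920 labels outside the window that differed between VG and PG, 59.4% lay nearer to the VG mean than to the PG mean in this library, and 1.92% to 7.26% in each of the other PG libraries. These 2920 were called with this library included. The part of these markers in its spermadhesin level was not tested, and the comparisons of the spermadhesins with PG are given with and without it.

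**Figure D3:**
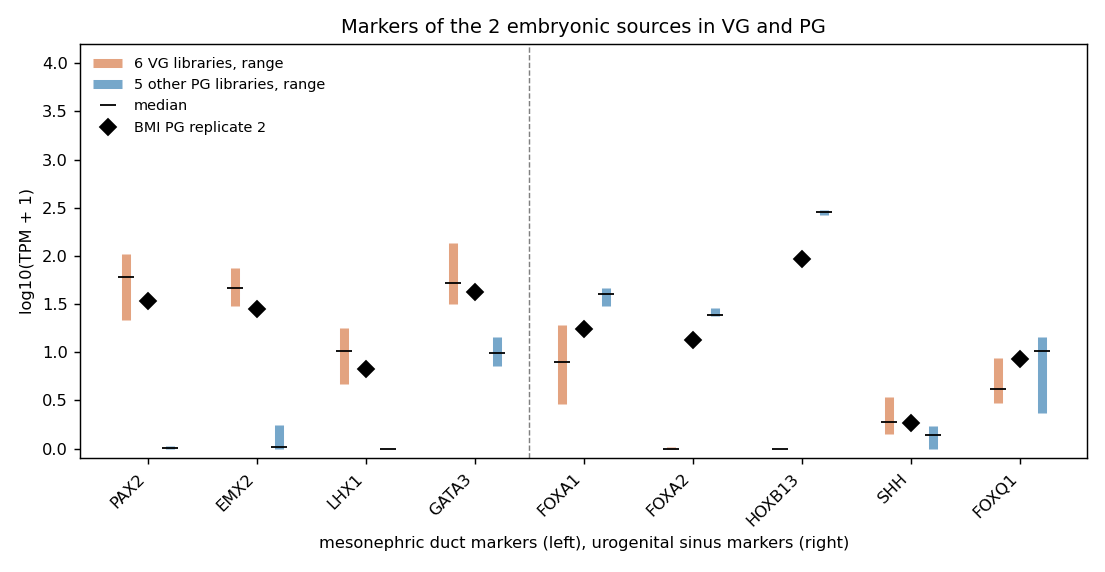
Levels of 4 mesonephric duct markers (left of the dashed line) and 5 urogenital sinus markers (right) on a scale of log10(TPM + 1). Bars span the range of the 6 VG libraries and of the 5 other PG libraries, short lines are medians, and diamonds are BMI PG replicate 2, which lies between the bars or within that of VG for all 9, and for FOXQ1 also within that of the other PG libraries. SHH, a sinus marker, has its higher median in VG.

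BMI Epi replicate 1 and DSE Epi replicate 2 had the most spermadhesin TPM in Epi. They also had the most skeletal muscle marker TPM (562 and 99.3, against 2.88 to 28.9 in the other Epi libraries) and the most smooth muscle marker TPM (13745 and 20837, against 2291 to 7978). Markers of epididymal principal cells were the lowest in the same libraries, at 1742 and 1895 TPM against 2471 to 34411 TPM. The part of these markers in the spermadhesin level was not tested.

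In Epi, SPMI was low beside AWN in the libraries with the most spermadhesin TPM. AWN had 2446 TPM in BMI Epi replicate 1, 679 in DSE replicate 2 and 94.4 in DSE replicate 3, whereas SPMI had 5.80, 25.7 and 42.1 TPM in the same libraries. The ratio of SPMI to AWN was 0.00237, 0.632 and 0.264 in BMI Epi and 0.440, 0.0379 and 0.446 in DSE Epi, against 0.941 to 1.94 in the 6 VG libraries. In BMI Epi replicate 3 and DSE Epi replicate 1 it rests on SPMI below 0.5 TPM. It was 1.42 in BMI PG replicate 2 and 1.19 in BMI BG replicate 2. In the other PG and BG libraries, with at most 23.0 TPM of spermadhesins, it was 0.899 to 4.68 and 0.373 to 8.57 where AWN was above 0, so values below the range of VG were not particular to Epi. The ratio was singled out after its values were seen, and was not tested. PSP-I held 37.4% to 47.4% of the spermadhesin TPM in VG and 7.04% to 64.7% in Epi, AWN 11.9% to 16.8% and 9.72% to 49.5%, and SPMI 15.8% to 23.1% and 0.0851% to 16.8%. The shares overlapped between Epi and VG in all 3.

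**Figure D4:**
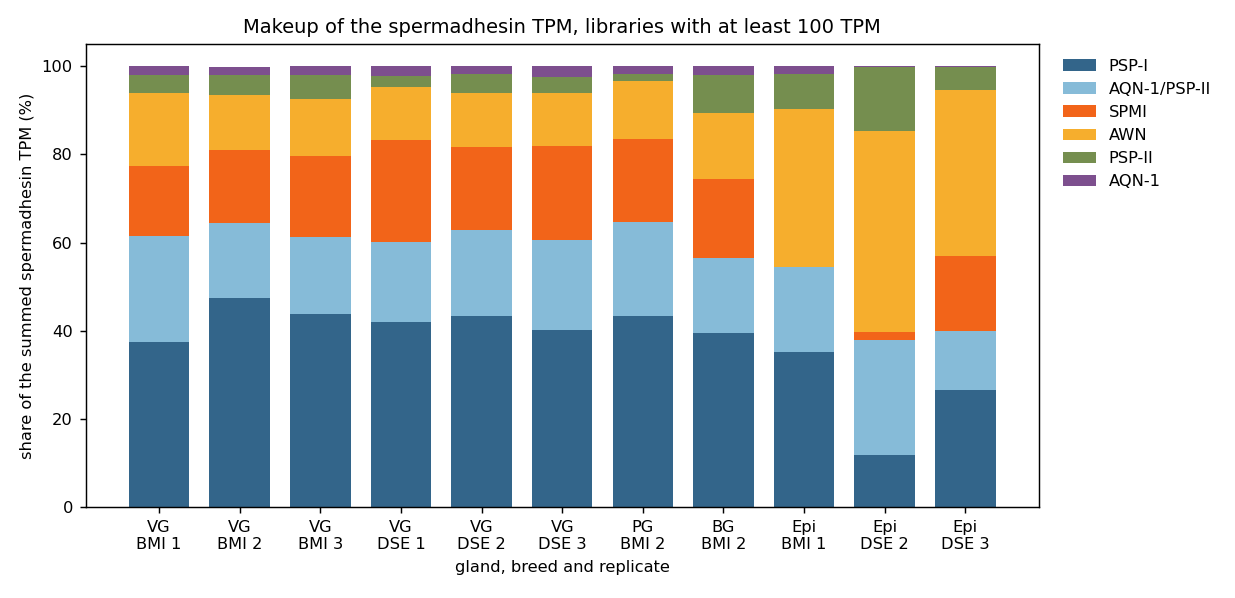
Share of the summed spermadhesin TPM (vertical axis, %) held by each of 6 labels in the 11 libraries with at least 100 TPM of them, the other joined labels making up the rest. SPMI takes a visible share of every VG library, BMI PG replicate 2 and BMI BG replicate 2, and its share in the 3 Epi libraries runs from 0.0851% in BMI replicate 1 to 16.8% in DSE replicate 3, which is within the range of VG.

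Differences between glands were tested with limma on log2(TPM + 1) over all 30 libraries. Labels that reached 1 TPM in 3 or more libraries entered (19796 labels, 11 of the 12 members with values). A label was called where p, adjusted by Benjamini-Hochberg over all labels, fell below 0.05 and the log2 difference was 1 or more. DMBT1, a secreted protein of mucosal surfaces, missed the filter: it reached 1 TPM in 2 libraries only. Several members passed the filter through VG almost alone, so that they had to differ: AWN/PSP-II and PSP-II/PSP-I reached 1 TPM in 7 libraries, AWN/PSP-I in 8 and the antisense label in 6. C14H10orf120 reached it in the 6 Tes libraries only. Their calls are therefore no support for the calls of the others.

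Between VG and PG, 10 of the 11 members were called, all higher in VG, where 14.8% of all labels tested were called and 3.43% were called higher in VG. SPMI was higher in VG by 12.80 ± 1.59 (log2(TPM + 1), SE, adjusted p = 1.2e-06 by limma), PSP-I by 12.97 ± 1.84 and AWN by 12.65 ± 1.88. Without BMI PG replicate 2 and BMI Epi replicate 1, a setting chosen after seeing the data, the same difference was 15.33 ± 0.684 for SPMI, 15.53 ± 0.756 for PSP-I and 15.13 ± 0.942 for AWN. The calls were the same 10 members. C14H10orf120 was not called.

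Between Tes and VG all 11 members were called, against 52.9% of all labels: 10 were higher in VG (8.03% of all labels were) and C14H10orf120 was higher in Tes (44.9%). The difference, Tes minus VG on the log2(TPM + 1) scale, was -16.55 ± 1.59 for SPMI, -17.56 ± 1.84 for PSP-I and -16.06 ± 1.88 for AWN. Between Epi and VG 10 members were called, against 36.5%, all higher in VG (1.92% of all labels were). Between VG and BG 10 were called, against 27.7%, all higher in VG (4.13%). The uncalled member was C14H10orf120 both times.

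Fewer members were called among the other glands. Between Tes and Epi 4 members were called, against 51.0% of all labels. C14H10orf120 was higher in Tes (29.4% of all labels were). PSP-I, AWN and AQN-1/PSP-II were lower in Tes (21.6%), with differences of -5.09 ± 1.84, -5.31 ± 1.88 and -4.71 ± 1.85 on the log2(TPM + 1) scale. Without BMI Epi replicate 1 alone only C14H10orf120 was called. Without that library and BMI PG replicate 2, SPMI, PSP-I, AWN and AQN-1/PSP-II were all called lower in Tes besides it.

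Between Tes and PG 3 members were called, against 48.9% of all labels. SPMI (-3.75 ± 1.59, Tes minus PG) and PSP-I (-4.59 ± 1.84) were lower in Tes (12.4% of all labels were), and C14H10orf120 was higher (36.6%). Without BMI PG replicate 2 and BMI Epi replicate 1 the difference of SPMI was -1.22 ± 0.684 (adjusted p = 0.12 by limma), and it was no longer called. That of PSP-I was -2.03 ± 0.756 (adjusted p = 0.0211 by limma), and it was still called. Without BMI PG replicate 2 alone PSP-I was not called either (adjusted p = 0.137 by limma), and C14H10orf120 was the 1 member called.

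Between Tes and BG 1 member was called, C14H10orf120, against 49.1% of all labels and 33.4% called higher in Tes. It had entered the test through Tes alone. No member was called by limma between Epi and PG (21.3% of all labels), Epi and BG (21.4%) or PG and BG (7.65%). At an unadjusted p below 0.05, 1 of the 11 members passed between Epi and BG, against 44.4% of all labels. It was AWN (higher in Epi by 4.11 ± 1.88, adjusted p = 0.0914 by limma). None passed between Epi and PG (50.1% of all labels) or PG and BG (28.9%). Without BMI PG replicate 2 and BMI Epi replicate 1, a setting chosen after seeing the data, AWN was called higher in Epi than in PG, by 2.86 ± 0.993 (adjusted p = 0.0257 by limma). In the same setting it was called higher than in BG, by 2.58 ± 0.942 (adjusted p = 0.0353 by limma), as was AQN-1/PSP-II, by 2.14 ± 0.824 (adjusted p = 0.0458 by limma). This setting kept DSE Epi replicate 2 (1485 TPM of spermadhesins) and BMI BG replicate 2 (186 TPM), which were also high for their gland. No fit left out all of these libraries.

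C14H10orf120, the next gene on the 5′ side of SPMI, had the opposite pattern. It had 89.3, 83.1 and 107.6 TPM in BMI Tes and 96.7, 18.2 and 87.9 TPM in DSE Tes, and at most 0.424 TPM in any other library. It is a gene of unknown function. In the neighbouring DMBT1, BG DSE replicate 3 had 20.6 TPM and the highest of the other 29 libraries, BG BMI replicate 2, had 1.65 TPM.

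For the breeds, DSE and BMI were compared within each gland. No member was called by limma in VG (0.0152% of all labels called), PG (0.0859%), BG (0.0253%), Epi (0.0%) or Tes (0.197%). At an unadjusted p below 0.05, AWN/PSP-I and the antisense label passed in VG, 2 of 11 members against 15.4% of all labels, and no member passed in PG (26.2% of all labels), Tes (12.6%), BG (6.07%) or Epi (2.44%). SPMI averaged 127240 ± 18393 TPM in DSE VG and 91836 ± 16236 TPM in BMI VG (SD, n = 3), a ratio of 1.39, with 1 DSE library within the range of BMI (two-sided exact permutation test, p = 0.2). With 3 libraries against 3, no exact p can be below 0.1. The SE of limma is inflated for the most abundant labels, for which the fitted trend of spread on level runs past other genes. It was 5.40 for SPMI, whose difference was 0.48. Without that trend, a setting added after seeing the data, it was 0.180 (unadjusted p = 0.0491, adjusted p = 0.320 by limma).

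AWN/PSP-I was higher in every BMI VG library than in any DSE VG library, with 431 ± 155 and 79.7 ± 37.8 TPM (SD, n = 3, two-sided exact permutation test, p = 0.1). The breeds did not overlap in 22.9% of all labels tested in VG. The antisense label had 7.41, 6.11 and 4.79 TPM in BMI VG and 0.525, 1.29 and 1.44 TPM in DSE VG, again without overlap. Its transcript of 4386 bases had 1 exon of 272 bases that covered 72 bases of exon 1 of PSP-II, and 1 of 4114 bases that covered 2 exons of PSP-I (166 bases). The library kit does not mark strand, so that reads from these stretches cannot be assigned to either strand. Over all labels tested in VG, the median difference, DSE minus BMI, was -0.27 on the log2(TPM + 1) scale. No gene of the marker lists was called by limma between the breeds there. The summed TPM of 6 of the 8 marker lists did not overlap between the breeds in VG. It was 177 to 330.02 in BMI and 84.4 to 155 in DSE for the mesonephric duct, 1169 to 1298 and 727 to 1007 for glandular epithelium, 13.98 to 21.8 and 2.96 to 5.74 for principal cells of the epididymis, 12.7 to 28.4 and 4.28 to 9.36 for the urogenital sinus, and 23.0 to 42.7 and 16.0 to 21.1 for leukocytes. Skeletal muscle markers were higher in DSE (4.36 to 17.8) than in BMI (0.298 to 2.71). Their part in the differences of AWN/PSP-I and the antisense label was not tested.

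In BG, PSP-I had 5.11, 73.5 and 2.42 TPM in BMI and 2.40, 0.275 and 0.364 TPM in DSE. The breeds did not overlap (two-sided exact permutation test, p = 0.1), as in 9.63% of all labels tested in BG, but the highest DSE library lay just under the lowest BMI library, and BMI replicate 2 stood far above all the others.

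The test of whether the breed difference of the antisense label differed between VG and BG gave -1.78 ± 0.314 on the log2(TPM + 1) scale (DSE minus BMI, adjusted p = 0.00865 by limma), 1 of 11 members against 0.126% of all labels and 0.0707% in this direction. The label was at 0 in all BG libraries, so this value is the breed difference in VG itself. That difference was not called in the fit of VG alone (adjusted p = 0.167 by limma) and was called in the fit of all 30 libraries (adjusted p = 4.2e-05 by limma), from which the test against BG comes. The difference from BG was not called with a pseudocount of 0.1 or with size factors. No member was called by limma for VG against PG (0.202%) or PG against BG (0.096%). At an unadjusted p below 0.05, 2 of 11 members passed for VG against PG, the antisense label and PSP-II/PSP-I, against 21.3% of all labels, and none for PG against BG (2.86%).

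Iso-seq gave a second view, with full-length reads counted for each isoform. These are raw counts of whole reads, not divided by transcript length. The 10 libraries held 231413 to 458697 full-length reads. Spermadhesin isoforms had 14755 reads in BMI VG (5.02% of its reads, Wilson 95% interval 4.94% to 5.10%), 21279 in DSE VG (6.69%, 6.60% to 6.78%) and 16108 in BMI PG (6.12%, 6.03% to 6.21%). DSE PG had none, which allows a share of up to 0.000893%. The other 6 libraries held 4 reads together. With 1 library a group the breeds could not be compared against replicates, and intervals cover counting error only.

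BMI PG was thus high in Iso-seq as well. Whether that library and BMI PG replicate 2 of RNA-seq came from the same boar is not given in the sources used here.

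The joined label AQN-1/PSP-II had more full-length reads than any other, 6225 in BMI VG, 7565 in DSE VG and 6868 in BMI PG. PSP-I had 4309, 7211 and 4029 reads, SPMI 1832, 2944 and 2581, and AWN 1353, 2631 and 1848. AQN-1 had 395, 837 and 626 reads and PSP-II under its own label 72, 47 and 74. The order of AQN-1/PSP-II and PSP-I was thus opposite to that of their TPM. In TPM, PSP-II under its own label took 1.61% to 3.23% of a VG library, and in Iso-seq 0.0245% of the BMI VG reads and 0.0148% of the DSE VG reads.

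**Figure D5:**
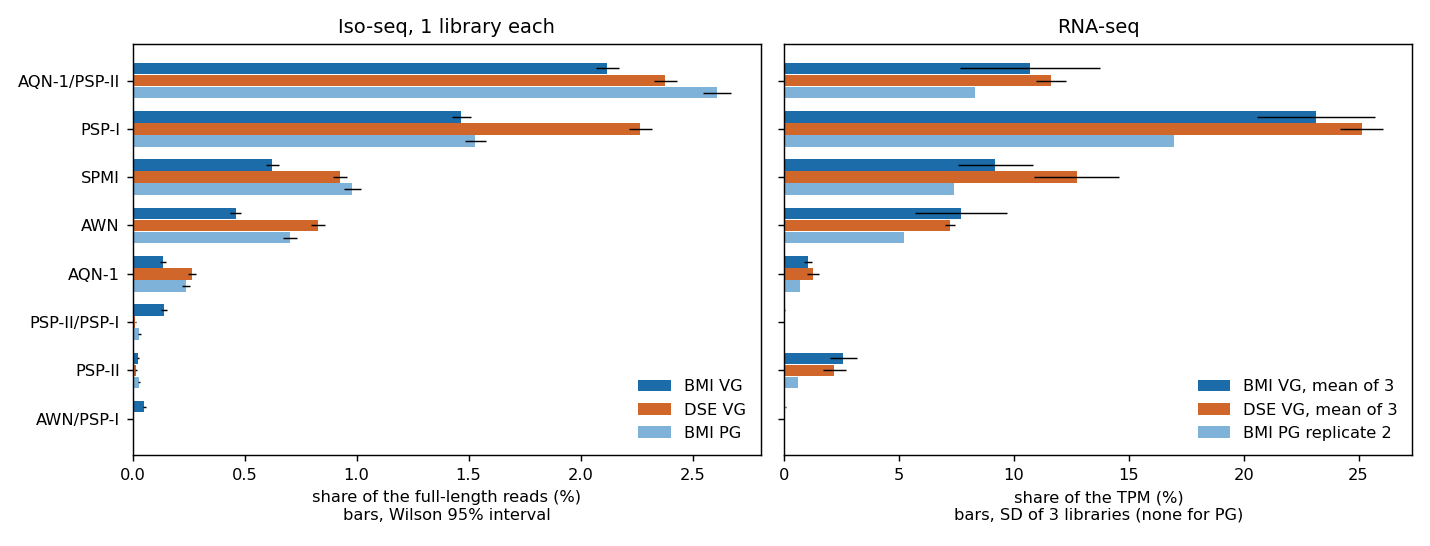
Left, share of the full-length reads of a library (%, 1 Iso-seq library each, bars are Wilson 95% intervals) held by 8 labels. Right, share of the TPM (%, mean of 3 RNA-seq libraries with the SD, and BMI PG replicate 2 alone). AQN-1/PSP-II leads in full-length reads and PSP-I in TPM.

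A single isoform accounted for most reads of each leading label. For AQN-1/PSP-II it was a 5-exon isoform of 1246 bases with 5984, 7340 and 6511 reads in BMI VG, DSE VG and BMI PG, 96.1%, 97.0% and 94.8% of the reads of the label. Its first exon of 633 bases ended at position 132259138 in AQN-1, and its second began at 132276940, at exon 2 of PSP-II, across an intron of 17801 bases with a GT donor and an AG acceptor. All its splice sites were canonical and it carried no mark of template switching in the deposited table. That table predicted for it a reading frame of 108 amino acids and decay by the nonsense-mediated pathway. Exons 2 to 5 of PSP-II, as read here, were taken from this isoform, so only the 46 coding bases of exon 1 could differ. They did not, so the 327 bases of the 2 frames were the same. The isoform held 99.5% to 99.7% of the TPM of its label in VG.

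The 633 bases of that first exon had close relatives next to the other genes. Stretches of the same length, ending with exon 1, were 93.0% the same in PSP-I, 92.2% in SPMI and 90.02% in AWN, and 65.2% in PSP-II. Since the read sequences were not analysed here, whether that first exon came from AQN-1 in these boars was not tested.

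PSP-I was read mainly as an isoform of 899 bases with its last exon at chr14:132309107-132309395, beyond the annotated end of the gene. It held 4139 of 4309 PSP-I reads in BMI VG (96.1%), 7113 of 7211 in DSE VG (98.6%) and 3946 of 4029 in BMI PG (97.9%). In TPM it held 43.9% to 74.4% of PSP-I in VG, and the 4-exon Ensembl transcript held most of the rest. For SPMI the leading isoform, with 5 exons and 1245 bases, held 75.3% of the reads in BMI VG, 92.9% in DSE VG and 85.6% in BMI PG. In TPM it held 0.299% of SPMI in VG, and a pair of Ensembl transcripts, each with 4 exons and covering part of the gene, held 57.6% and 41.8%.

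For AWN the leading isoform matched the splice pattern of the annotated transcript and held 94.1%, 96.3% and 91.2% of the reads in BMI VG, DSE VG and BMI PG. For AQN-1 it held 68.4%, 72.4% and 63.6%. For each label the share of its TPM held by the transcript with the most TPM was compared between glands. For AQN-1/PSP-II and PSP-I this was the leading isoform above, and for AWN and SPMI it was an Ensembl transcript (ENSSSCT00000003309 and ENSSSCT00000003304). Of 15 pairs of glands within these 4 labels, 0 passed (two-sided exact permutation test over libraries, lowest adjusted p = 0.563).

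In Iso-seq, isoforms joining AWN to PSP-I came from a single library. AWN/PSP-I had 155 full-length reads in 8 isoforms in BMI VG and none in DSE VG or BMI PG, and PSP-II/PSP-I had 414, 41 and 80 reads. In RNA-seq, neither label was called by limma between the breeds in VG. AWN/PSP-I was higher in BMI VG, by the values given above. PSP-II/PSP-I had 46.2 ± 44.6 TPM in BMI and 160 ± 95.2 TPM in DSE (SD, n = 3). The leading isoforms of both labels held a splice site that was not canonical.

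In all, 140 spermadhesin isoforms were listed, of which 33 had 2 reads and 18 had at least 100 reads over the libraries. Intron retention was given for 75, 53 had a splice site that was not canonical, 87 were called coding and 52 were predicted to be decayed. Isoforms with at least 1 read numbered 111 in BMI VG, 90 in DSE VG and 100 in BMI PG. SPMI had the most listed isoforms, 31, and the joined label AQN-1/PSP-II had 24.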

How the data were processed

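The authors deposited full-length read counts per isoform and Iso-seq library, without normalization. They clustered the reads, aligned them to Sscrofa11.1, collapsed them and classified the isoforms with SQANTI3. The deposited TPM of 30 RNA-seq libraries were estimated by the authors with salmon (Salmon 1.9.0 in the submitters' processing notes) from the Iso-seq and Ensembl annotations merged. Read depth of RNA-seq is not given in these values. The labels state rRNA depletion for RNA-seq and the study's methods poly-A selection.

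TPM were summed by gene label and fitted with limma 3.58.1 (R 4.3.3, eBayes with trend) on log2(TPM + 1), with 1 coefficient per breed and gland, or by gland for the breeds. On this scale changes of low genes are understated. Exact permutation tests used scipy 1.17.1. Sequences and positions came from the RefSeq copy of Sscrofa11.1 and were aligned with MAFFT 7.526 and Biopython 1.88. Scripts were tested on simulated data. Members and gene lists were chosen with earlier results of these data known. All labels of the window are named. For SPMI, AWN and PSP-II the 5 genes outside it with the highest correlation are named, and of each list the 3 genes with the highest mean TPM are reported where it bears on a result. Small RNA data were not used here, and some members of the marker lists are not reported here.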

Additional observations from a re-analysis of the deposited data

Results flagged for a closer look

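Within a gland, the highest or lowest of the 6 libraries was compared with its nearest neighbour, as the gap divided by the range over 6 libraries, both on the log2(TPM + 1) scale. Chance alone flags about 1 in 20 such groups, and 18 of 35 members and glands were flagged here. The members move together and share libraries, so these are not 35 independent groups. By the same measure, 7.9% of all labels were flagged in PG, 6.92% in BG, 9.46% in Epi and 20.3% in Tes.

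In PG all 10 flags were of BMI replicate 2 on the high side, as were those of 2.55% of all labels. The ratio was 0.858 for PSP-I, 0.861 for PSP-II, 0.876 for SPMI, 0.891 for AWN, 0.908 for AQN-1/PSP-II and 0.982 for AQN-1. It was 1 for AWN/PSP-II, AWN/PSP-I, PSP-II/PSP-I and the antisense label, which were listed at 0 in the other 5 PG libraries. The marker genes that move with this library are given in the results, and their part was not tested.

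In BG, BMI replicate 2 stood above the others in AWN (27.7 TPM, ratio 0.692), AQN-1/PSP-II (31.4 TPM, 0.848), AQN-1 (3.68 TPM, 0.983) and PSP-II (16.2 TPM, 0.642). In Epi, BMI replicate 1 stood above the others in AQN-1 (115 TPM, 0.729) and AWN/PSP-I (4.83 TPM, 0.956). DMBT1 stood out in DSE BG replicate 3 (20.6 TPM, 0.696). That library had 1162 TPM of skeletal muscle markers (0 to 353 in the other BG libraries) and 302 TPM of leukocyte markers. BMI BG replicate 2 had 303 TPM of leukocyte markers, and the other BG libraries 30.6 to 205. The part of these markers was not tested. C14H10orf120 was low in DSE Tes replicate 2 (18.2 TPM, 0.852), the Tes library that also had the lowest sum of testis markers.

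The breed difference of the antisense label differed between VG and BG by -1.78 on the log2(TPM + 1) scale, by the limma test of the difference. The label was at 0 in all BG libraries, so the value is the breed difference in VG. That was not called in the fit of VG alone (adjusted p = 0.167 by limma) but was in the fit of all 30 libraries (adjusted p = 4.2e-05 by limma). The call against BG was lost with a pseudocount of 0.1 or with size factors.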

How the results depend on the processing

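Without joined or newly found labels, 6 members were called between Tes and VG, and 5 between VG and each of Epi, PG and BG. With joined isoforms added to the gene of their last exon, 7 and 6 were called. Fewer members were tested in these settings. Between Tes and PG, 5 members were called with a pseudocount of 0.1, and 1 without a filter, with the 12 libraries of both glands alone, or over transcripts. Between Tes and BG, 2 were called without a filter, 3 with the 12 libraries alone, and 3 without BMI Epi replicate 1 and BMI PG replicate 2. That last setting, chosen after seeing the data like the last-exon sums and the fit without a trend, gave 1 between Epi and PG, 2 between Epi and BG, and 2 for the breed difference of VG against PG and of VG against BG. The 2 were the antisense label and AWN/PSP-I both times. In that setting they were at 0 in all PG libraries, so for PG the values are the breed differences in VG. Over transcripts, the counts were 4 and 5. For VG against BG, 0 were called with a pseudocount of 0.1, with size factors or without joined labels. Between the breeds in VG, 1 (the antisense label) was called in a fit of all 30 libraries and 1 over transcripts. The causes were not tested. The ratio of spermadhesin full-length reads in DSE VG to those in BMI VG was 1.44, and 1.33 once divided by the reads of each library.

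Leaving out each library in turn gave 1 to 5 calls between Tes and Epi (1 without BMI Epi replicate 1) and 1 to 7 between Tes and PG. There, 1 remained without BMI Tes replicate 2, DSE Tes replicate 2, BMI PG replicate 2 or DSE PG replicate 2, and 7 without BMI PG replicate 1 or 3. The range was 0 to 3 between Epi and PG (3 without BMI PG replicate 2), 0 to 1 between Epi and BG (1 without BMI Epi replicate 3 or DSE Epi replicate 1) and 0 to 1 for the breed difference of VG against PG (1 without BMI VG replicate 3 or BMI PG replicate 2). It was 11 to 11, 10 to 10, 10 to 10 and 10 to 10 for VG against Tes, Epi, PG and BG, 1 to 1 between Tes and BG and for the breed difference of VG against BG, and 0 to 0 for the rest. No result reversed.

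Replicate numbers were not taken to pair the libraries. The correlation of deviations between glands of the same breed and number was -0.298 to 0.390 (median 0.0408), above 0.1 in 21 of 60 pairs. Between libraries of other numbers it was -0.368 to 0.344 (median -0.0261), above 0.1 in 18 of 120 pairs. The labels tie no number to a boar, and not every pair was above 0.1. With the replicate number as a block, no count of members called changed, and 10 were called between VG and PG.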

Other observations

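The genes whose log2(TPM + 1) followed the spermadhesins most closely over the 30 libraries, given as a description, were these. BSP1, a binder of sperm and of phospholipids in seminal plasma, had the highest Pearson correlation with AWN (0.974) and PSP-II (0.975) and averaged 26400 TPM in VG. CEACAM20 was first for SPMI (0.975), followed by AQP2, a water channel (0.965, 671 TPM in VG). ENSSSCG00000061116, CAMK2N1, NDP and AGMO followed for AWN (0.957 to 0.972), and novelGene_2522, ENSSSCG00000043154 and ENSSSCG00000044784 for SPMI (0.960 to 0.963). ADAMTS14, AGMO, ENSSSCG00000044784 and ENSSSCG00000061116 followed for PSP-II (0.955 to 0.966). The points share glands and libraries, BMI PG replicate 2 among them. Among the 5 spermadhesin genes the correlation was 0.959 to 0.991.

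Other proteins of seminal plasma and other genes with a CUB domain were read beside them. Of 26 measured seminal plasma genes, 4 were higher in VG than in PG (3.43% of all labels were) and 2 lower (11.4%), with a median difference of 0.0664 against -0.27 over all genes. The list does not hold BSP1. Without the 2 libraries BMI PG replicate 2 and BMI Epi replicate 1, 4 were higher (4.15% of all labels) and 2 lower (13.4%). MSMB, a major protein of prostate fluid, averaged 6.89 TPM in VG and 131480 in PG (88607 in BMI PG replicate 2 and 140050 ± 33845 in the other PG libraries, SD, n = 5). In Epi, NPC2 averaged 11492 ± 12284 TPM and CLU 4429 ± 7441.5 TPM (SD, n = 6), so both varied widely between libraries. Of 32 tested CUB genes, 3 were called between VG and PG by limma, all lower in VG, a share near that of all labels (11.4%). Without the 2 libraries, 5 were called, again all lower in VG (13.4% of all labels). The 3 with the highest mean TPM were PCOLCE (53.5 TPM in VG and 72.4 in PG), ST14 (63.3 and 106) and C1S (30.9 and 48.3).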
